A study of Rattus norvegicus with 2 samples.

Results

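Glucocorticoid-responsive genes are 8 genes that make up a short circuit of hormone sensing: Nr3c1, which encodes the glucocorticoid receptor, the receptor targets Tsc22d3, Fkbp5, Sgk1, Klf9 and Zbtb16, and the hormone-converting enzymes Hsd11b1 and Hsd11b2. They were taken by name, as transcript clusters (groups of probes that cover a whole transcript) whose only gene symbol in the platform annotation is that of the gene. All 8 genes were found among the 22093 genes with such a cluster. Each had 1 cluster, and no cluster with several symbols named any of them. Expression was compared between 1 array of RNA from 7 pooled male F344 rats that drank water with 200 ppm dimethylarsinic acid (DMA) for 4 weeks and 1 array of RNA from 7 pooled male F344 rats whose water held 0 ppm. DMA is a methylated metabolite of arsenic that induces bladder cancer in rats. The labels give urinary bladder as the tissue, 6 weeks as the age at the start and 10 weeks at sampling, whereas the methods of the study describe older rats and a preparation enriched in the bladder lining.

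In rodents the main glucocorticoid is corticosterone, which enters cells and binds the receptor, a protein held ready in the cytoplasm by HSP90 chaperones. The bound receptor moves to the nucleus and acts at DNA sites built from paired half-sites. 11beta-hydroxysteroid dehydrogenase type 1, the product of Hsd11b1, regenerates active hormone inside cells, and the type 2 enzyme, the product of Hsd11b2, inactivates it and so shields the mineralocorticoid receptor in epithelia that transport sodium. Glucocorticoid levels follow a daily rhythm and rise with stress.

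RMA signals, which are normalised intensities on a linear scale, ran over all 68842 clusters from 5.63 to 873102 on the DMA array and from 6.75 to 888031 on the control array, with medians of 53.2 (DMA) and 49.7 (control). A signal of 100 on at least 1 array was required for a gene to count as measured. This was met by 11718 genes, among them all 8 described here, each of which reached 100 on both arrays. Upk2, which encodes a uroplakin and marks the urothelium that lines the bladder, had a signal of 561252 in the DMA pool and 544597 in the control pool. Markers of other cells were bright too. The smooth muscle marker Acta2 had 193999 in the DMA pool and 268031 in the control pool. The fibroblast marker Dcn had 123104 in the DMA pool and 185257 in the control pool. There was 1 array per group, so no difference had an error, a replicate check or a p-value, and pooling hid the spread between rats.

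Promoter windows from RefSeq (build GRCr8, 250 bases before to 50 after a start) were on hand for 5 of the 8 genes, namely Nr3c1, Tsc22d3, Fkbp5, Sgk1 and Klf9, in 10 windows. They are shown for the targets Sgk1, Tsc22d3 and Klf9, whose log2 ratios spanned much of the range among the targets, in lower case with the receptor half-site GAACA, or TGTTC where it lies on the other strand, in capitals.

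Sgk1 (chr1:24807182-24807481, minus strand): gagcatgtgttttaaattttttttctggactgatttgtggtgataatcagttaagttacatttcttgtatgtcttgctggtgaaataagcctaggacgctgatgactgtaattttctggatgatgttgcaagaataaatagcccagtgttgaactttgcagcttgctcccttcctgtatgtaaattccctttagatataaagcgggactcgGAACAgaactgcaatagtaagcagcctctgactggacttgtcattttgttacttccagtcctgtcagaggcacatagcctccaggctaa
Tsc22d3 (chrX:109066340-109066639, minus strand): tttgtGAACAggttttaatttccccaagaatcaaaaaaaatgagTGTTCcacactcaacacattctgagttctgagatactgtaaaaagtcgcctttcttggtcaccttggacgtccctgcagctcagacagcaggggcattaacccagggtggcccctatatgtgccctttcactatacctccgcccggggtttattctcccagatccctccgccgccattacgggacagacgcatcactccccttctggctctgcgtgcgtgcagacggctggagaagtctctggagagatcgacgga
Klf9 (chr1:230126396-230126695, plus strand): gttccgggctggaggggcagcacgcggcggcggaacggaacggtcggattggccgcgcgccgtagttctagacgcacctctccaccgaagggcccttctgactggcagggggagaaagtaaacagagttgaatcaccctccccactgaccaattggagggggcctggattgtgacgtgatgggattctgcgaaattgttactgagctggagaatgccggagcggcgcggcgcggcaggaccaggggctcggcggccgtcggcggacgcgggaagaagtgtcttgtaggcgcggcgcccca

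The half-site stood once in the printed Sgk1 window, starting at position -39 from the transcription start, and at -245 and -206 in the Tsc22d3 window, whereas the Klf9 window held none. Sgk1 and Tsc22d3 have 3 windows each, for different starts, and the other 2 of each gene held no half-site. In all, 2 of the 10 windows had a match, and 45.3% of all 33469 promoter windows of the same length held this half-site on either strand. The longer half-site AGAACA, which contains the shorter one, was in 0 of the 10 windows against 20.7% of all windows. The full palindrome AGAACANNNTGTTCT, which contains that half-site on each strand, and its looser core GNACANNNTGTNC were also in 0 of the 10 windows, against 0.0149% and 0.439% of all windows. A match is a likeness of letters only, and a window without one says nothing about receptor sites elsewhere.

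The transcripts of the receptor and of most of its targets differed little between the pools, and the lowest ratios belonged to Hsd11b1 and Klf9. By the thresholds of the study's methods, a gene was higher when the DMA signal was at least 2 times the control signal and the Z score was 2 or more, and lower when the ratio was 0.5 or less and the Z score -2 or less. The Z score set the log2 ratio of a gene against the mean and SD of the 500 measured genes nearest to it in signal. None of the 8 genes was past the thresholds (0 higher and 0 lower), beside 1.79% of all measured genes (0.375% higher and 1.42% lower). None reached a 1.5-fold difference either, beside 6.78% of all measured genes (1.3% higher and 5.48% lower). Of the 8 genes, 6 had a log2 ratio below 0, beside 58.9% of all measured genes. The median log2 ratio was -0.16 over the 8 genes and -0.04 over all measured genes, and the 8 log2 ratios ran from -0.58 to 0.07.

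**Figure D1:**
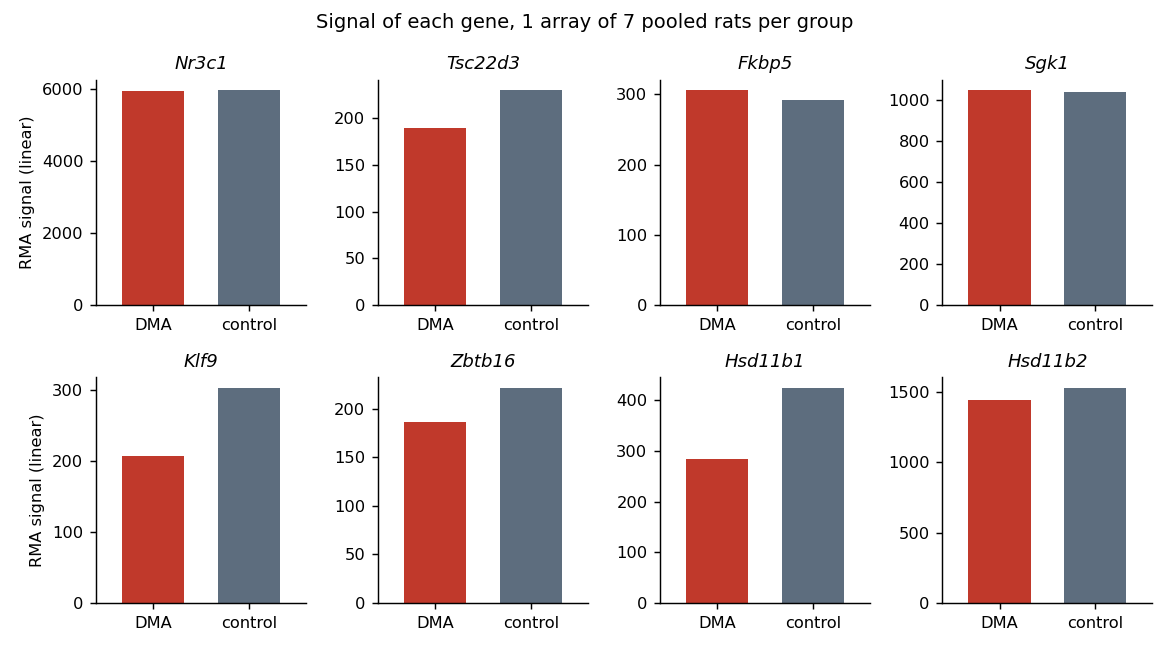
RMA signal (linear, from 0, with its own scale in each panel) of the 8 genes in the DMA pool (red) and the control pool (grey), 1 array each, so that no error bar can be drawn. The DMA bar is clearly shorter for Hsd11b1 (283 and 424) and Klf9 (207 and 302), and the bars are nearly level for Nr3c1 and Sgk1.

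Nr3c1, the glucocorticoid receptor, had a signal of 5943 in the DMA pool and 5968 in the control pool (cluster TC1800001317.rn.1). Its log2 ratio was -0.01 with a Z score of 0.27, and its sign turned under 2 of 3 other scalings of the arrays. Relative to the median of all measured genes it stood at 0.035, and at 0.036 to 0.092 under the 3 scalings. Of the 500 genes nearest in signal, 303 had a lower log2 ratio, which places the receptor near the middle of genes of like brightness.

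Among the targets, Sgk1 and Fkbp5 were level. Sgk1, a kinase that promotes sodium uptake by epithelia and responds to both glucocorticoids and aldosterone, had a signal of 1045 in the DMA pool and 1039 in the control pool (cluster TC0100004221.rn.1), a log2 ratio of 0.01, which was 0.048 above the median of all measured genes. Fkbp5, an HSP90-binding immunophilin that lowers the hormone affinity of the receptor and is itself induced by it, had a signal of 306 in the DMA pool and 292 in the control pool (cluster TC2000001220.rn.1). Its log2 ratio of 0.07 was the highest of the 8 and lay 0.11 above the median of all measured genes. The ratios of Sgk1 and Fkbp5 stayed above that median under all 3 other scalings. Fkbp5 is widely used as a readout of receptor activity, and its Z score here was 0.48.

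The other targets gave lower signals in the DMA pool. Klf9, a Krüppel-like transcription factor induced by glucocorticoids and thyroid hormone, had a signal of 207 in the DMA pool and 302 in the control pool (cluster TC0100003374.rn.1), a ratio of 0.685 and a log2 ratio of -0.55. Its Z score was -1.35, and 30 of the 500 genes nearest in signal had a lower ratio, so it lay in the low tail of genes of like brightness without passing either threshold. Tsc22d3, which encodes the anti-inflammatory protein GILZ, had a signal of 189 in the DMA pool and 229 in the control pool (cluster TC0X00002255.rn.1), a log2 ratio of -0.28 with a Z score of -0.72. Zbtb16, which encodes the zinc finger repressor PLZF, had a signal of 186 in the DMA pool and 221 in the control pool (cluster TC0800002484.rn.1), a log2 ratio of -0.25 with a Z score of -0.58. Tsc22d3 and Zbtb16 were close to each other both in ratio and in the number of neighbouring genes with a lower ratio, 87 and 103 of 500. Relative to the median of all measured genes, Klf9 stood at -0.51, Tsc22d3 at -0.24 and Zbtb16 at -0.21, and all 3 stayed below that median under the 3 other scalings. The 5 targets thus lay on both sides of the typical gene. The log2 ratio of Klf9 minus that of Fkbp5 was -0.61 (-0.61 to -0.51 over the settings), a difference between genes of the same arrays that no constant factor for an array can alter. Klf9 was the lowest and Fkbp5 the highest of the 5 targets, so the choice of pair made this gap the widest among them. The range over the settings is not an error, and 1 array per group gives none.

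**Figure D2:**
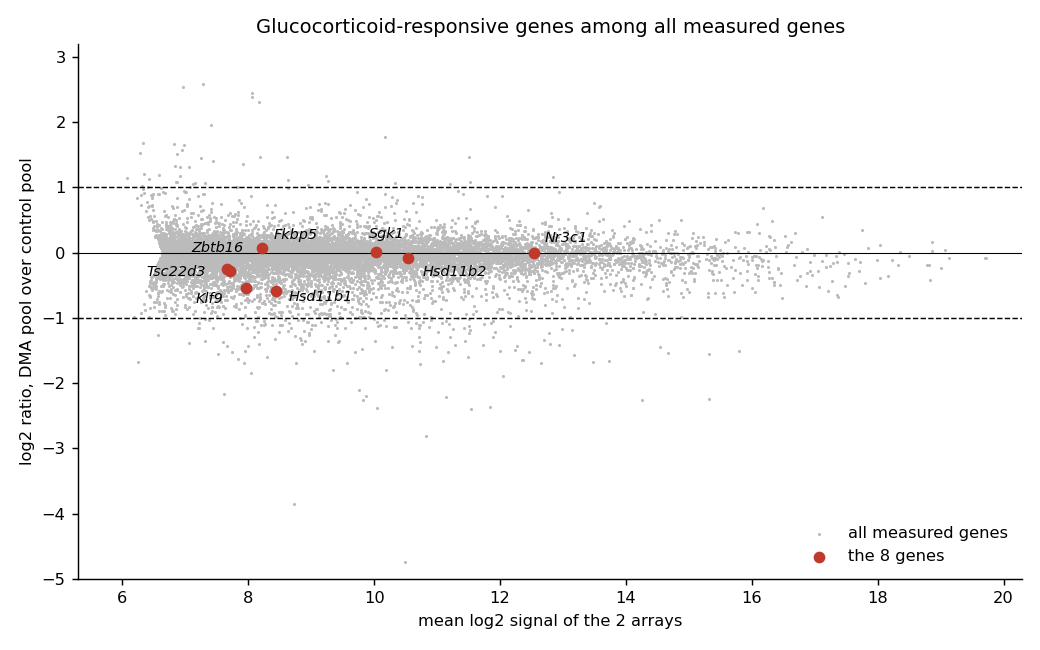
Log2 ratio of DMA over control against the mean log2 signal of both arrays for 11718 measured genes (grey) and the 8 genes (red), with dashed lines at a 2-fold difference. All 8 genes lie between the dashed lines, with Hsd11b1 and Klf9 lowest at -0.58 and -0.55.

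The enzymes that set hormone levels inside cells were unequal. Hsd11b1 had a signal of 283 in the DMA pool and 424 in the control pool (cluster TC1300002245.rn.1), a ratio of 0.669 and the lowest log2 ratio of the 8, at -0.58. Its Z score was -1.68, and 36 of the 500 genes nearest in signal had a lower ratio. Hsd11b2 had a signal of 1441 in the DMA pool and 1528 in the control pool (cluster TC1900000480.rn.1), a log2 ratio of -0.08, which was -0.043 relative to the median of all measured genes. The log2 ratio of Hsd11b1 minus that of Hsd11b2 was -0.50 (-0.50 to -0.43 over the settings). Relative to the median of all measured genes, Hsd11b1 stood at -0.54 on the deposited scale and also under each of the 3 other scalings. H6pd, which supplies the type 1 enzyme with NADPH, had 498 in the DMA pool and 503 in the control pool and did not share the ratio of Hsd11b1.

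**Figure D3:**
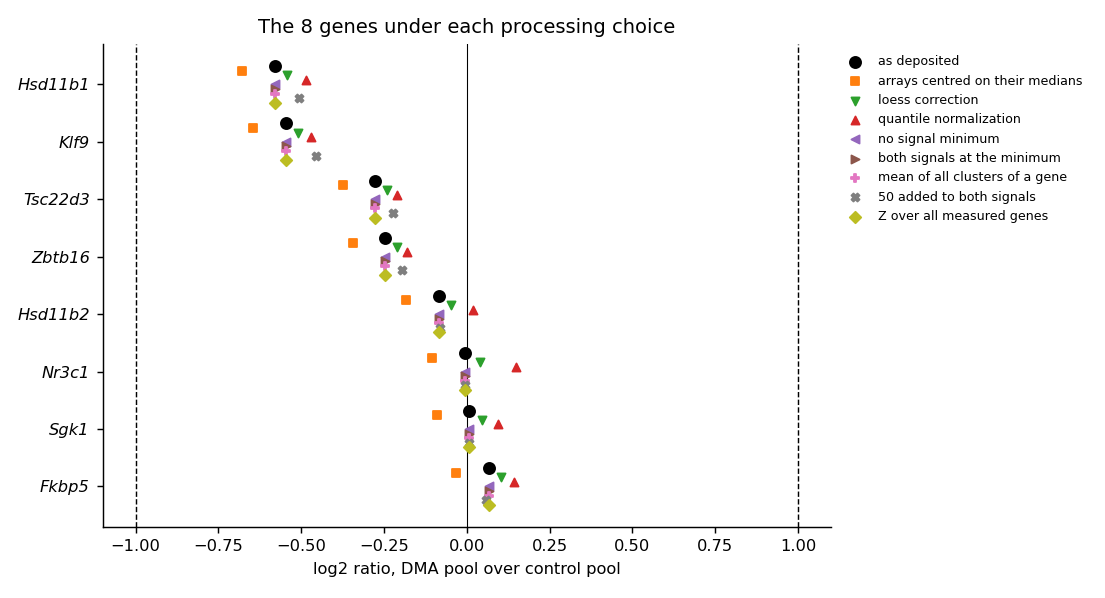
Log2 ratio of DMA over control (horizontal axis) for each of the 8 genes, lowest at the top, with the deposited scale (black) and 8 other processing settings (colours); dashed lines mark a 2-fold difference. Only the scalings and the added 50 move a point: Hsd11b1, Klf9, Tsc22d3 and Zbtb16 stay below 0 under all 3 scalings, whereas Hsd11b2, Nr3c1, Sgk1 and Fkbp5 have points on both sides of 0.

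Fibroblast markers were lower in the DMA pool beside these values, and other cell type markers were lower to differing degrees or higher. Over all measured genes, 0.375% were higher and 1.42% lower at the thresholds. Of 8 fibroblast markers, 7 were lower at the thresholds, with a median log2 ratio of -1.44. Their summed signal was 209168 in the DMA pool and 427470 in the control pool. Of 5 macrophage markers, 0 were past both thresholds, with a median of -0.78 and a summed signal of 2311 in the DMA pool and 3991 in the control pool. Smooth muscle markers had a median of -0.31 over 6 genes, and markers of differentiated urothelium a median of 0.03 over 10 genes. Of these 10, 7 were above 0, the highest Krt18 at 0.68 and not past the ratio threshold, and 3 were below 0. Krt20, a keratin of umbrella cells, was lower at the thresholds. Of 3 measured adipocyte markers, Adipoq and Lpl were lower at the thresholds (log2 ratios -1.20 and -1.15), whereas Cfd was at 0.09. The summed signal of the 4 listed was 1589 in the DMA pool and 3169 in the control pool. Most of that sum was Lpl, with 1030 in the DMA pool and 2284 in the control pool. Both red cell markers, Hba-a1 and Hbb, were lower, with a median of -1.70. Hbb reached the signal minimum in the control pool alone (99.6 in the DMA pool), which fixed its direction. The median of 5 measured endothelial markers was -0.49, none of them past both thresholds. Of 5 measured mitosis genes, 4 were higher, with a median of 1.68. Among them, Top2a, Cenpf and Bub1 reached the signal minimum in the DMA pool alone, which fixed their direction. Mki67 and Ccna2, both higher, reached it on both arrays. Of 4 measured basal urothelium markers, 1 was higher, with a median of 0.36. No marker of the fibroblast, macrophage, smooth muscle, differentiated urothelium or red cell lists was under the signal minimum on both arrays. Hsd11b1 is known to be expressed in fibroblasts and fat cells of mice and humans. In bulk RNA, fewer cells of a type and less RNA per cell cannot be told apart, and the part of these cell types and of cell division in the ratios of Hsd11b1, Klf9, Tsc22d3 and Zbtb16 was not tested.

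The wider set of glucocorticoid-induced genes leaned lower in the DMA pool, though not as a whole. Of 36 listed genes, 25 were measured, 1 was higher and 2 were lower at the thresholds (background 0.375% and 1.42%). A log2 ratio below 0 was found for 18, beside 58.9% of all measured genes, and 7 were above 0. The median was -0.26, beside -0.04 over all measured genes. At least 1.5-fold lower were 4 genes, beside 5.48% of all measured genes, and 1 was at least 1.5-fold higher, beside 1.3%. Pdk4, a kinase that restrains pyruvate oxidation, was 3.43-fold higher, with 2137 in the DMA pool and 623 in the control pool. Cdkn1c, the cell cycle inhibitor p57, was 2.44-fold lower, with 2420 in the DMA pool and 5904 in the control pool. Dusp1, a phosphatase that inactivates MAP kinases, was 2.16-fold lower, with 747 in the DMA pool and 1612 in the control pool. Crispld2, which encodes a secreted glycoprotein, had a log2 ratio of -0.87, with 541 in the DMA pool and 989 in the control pool. It was past the Z threshold (-2.78) and not past the ratio threshold. Pdk4 thus stood 1.78 above 0 on the log2 scale while Fkbp5 and Sgk1 were level and Klf9 and Tsc22d3 were below 0. Pdk4 is also known to be induced by fasting, and Dusp1 by growth factors and stress. The part of the receptor or of these other inducers in the 2 ratios was not tested.

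Genes that glucocorticoids repress were mostly dim, with 6 of 16 measured. Ptgs2, the inducible cyclooxygenase, was 2.23-fold lower, with 275 in the DMA pool and 613 in the control pool, and the collagenase gene Mmp13 was 2.48-fold higher, with 211 in the DMA pool and 84.9 in the control pool. Mmp13 reached the signal minimum in the DMA pool alone, which fixed its direction. Vcam1 and Icam1, which encode adhesion molecules for leukocytes, had log2 ratios of -0.83 and -0.44, neither past the ratio threshold. The Z score of Vcam1, -2.45, was past the Z threshold, and that of Icam1, -1.26, was not.

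**Figure D4:**
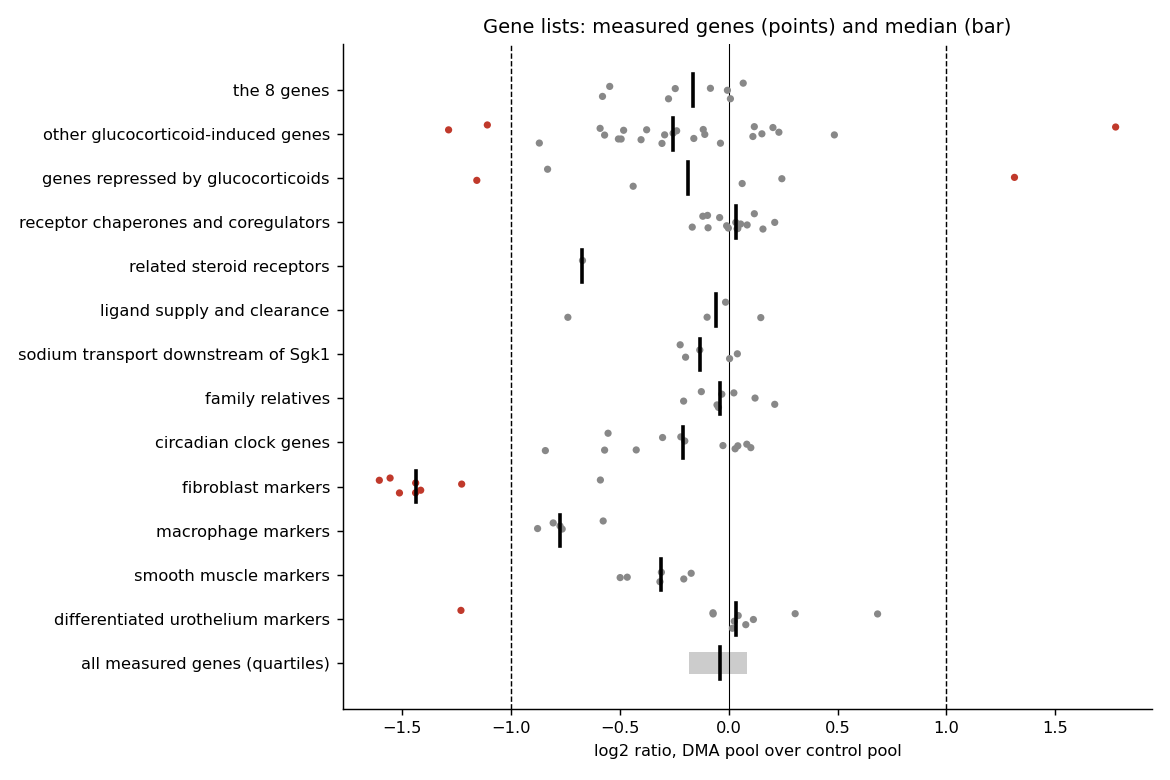
Log2 ratio of DMA over control for measured genes of each list (points, red where past the ratio and Z thresholds), the list median (black bar), the quartiles of all measured genes (grey box, bottom row) and a 2-fold difference (dashed lines). The 8 genes have a median of -0.16, between that of the receptor chaperones and coregulators (0.03) and that of the other induced genes (-0.26).

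The measured chaperones and coregulators of the receptor had small log2 ratios. Of 17 listed, 15 were measured and 0 were past the thresholds, beside 1.79% of all measured genes. The log2 ratios ran from -0.17 to 0.21 with a median of 0.03. The extremes were Fkbp4, the HSP90-binding immunophilin that competes with Fkbp5 (0.21), and the coactivator gene Ncoa1 (-0.17), and the chaperone gene Hspa8 and the acetyltransferase gene Ep300 were at 0.16 and -0.12. Nr3c2, which encodes the mineralocorticoid receptor and is the relative closest to Nr3c1, had a signal of 266 in the DMA pool and 425 in the control pool. Its log2 ratio was -0.67 with a Z score of -2.07, so that it was past the Z threshold and not past the ratio threshold. The log2 ratio of Nr3c2 minus that of Nr3c1 was -0.67 (-0.73 to -0.58 over the settings). Pgr, the progesterone receptor gene, was under the signal minimum on both arrays.

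Around the hormone itself, 4 of 11 listed genes of steroid supply and clearance were measured. Of these, 0 were past both thresholds, beside 1.79% of all measured genes. Akr1c14, the rat 3alpha-hydroxysteroid dehydrogenase, had a signal of 139 in the DMA pool and 233 in the control pool (log2 ratio -0.74, Z score -2.11). Cyp11a1, which makes pregnenolone from cholesterol, was at 0.15, the polyprenol reductase gene Srd5a3 at -0.10 and H6pd at -0.01. Downstream of Sgk1, the sodium channel subunit genes Scnn1b and Scnn1g had log2 ratios of 0.04 and -0.13. The ubiquitin ligase genes Nedd4l and Nedd4 were at -0.22 and -0.20. In this list 0 of 5 measured genes were past the thresholds, beside the same 1.79%. Of 8 measured family relatives of the targets, 0 were past the thresholds, again beside 1.79% of all measured genes. The farthest from 0 were Fkbp4, Fkbp1a (-0.21), Klf13 (-0.13) and Klf16 (0.12).

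Several of these targets also follow the time of day. Per1, a clock gene that the glucocorticoid receptor induces directly, had a signal of 300 in the DMA pool and 445 in the control pool. Its log2 ratio was -0.57, and that of Klf9 minus that of Per1 was 0.02. Of 12 measured clock genes, 0 were past both thresholds, beside 1.79% of all measured genes. In this list 8 were below 0, beside 58.9% of all measured genes, and 4 were above 0, the highest Cry1 at 0.10. The median was -0.21. The lowest was Nr1d1, the repressor REV-ERBalpha, at -0.84 (323 in the DMA pool and 579 in the control pool). Nr1d1 was past the Z threshold (-2.19) and not past the ratio threshold. Dbp and Bmal1 were at -0.55 and -0.43. No source used here gives the time of day at sampling. Its part in these ratios was not tested.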

How the data were processed

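RNA extracted with TRIzol from 7 pooled rats per group was labelled with a GeneChip WT PLUS kit and read on 1 array per group. The deposited table gives linear intensities for transcript clusters, which the authors obtained by RMA in Affymetrix Expression Console 1.4.1, per the labels. RMA corrects background and makes arrays alike, so a change shared by most transcripts is removed and ratios of dim transcripts are narrowed. The log2 of 100% of the values lay within 1e-08 of a number with 6 decimals, so they were returned to log2. For the clusters, build and annotation are not given in the sources used here. The array named in the methods differs from that of the deposited values, and the filter on values under 100 was not applied to them.

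Of 68842 clusters, 23446 had 1 symbol. Symbols were updated through gene identifiers (GRCr8 gene table), and the brightest cluster stood for a gene. No test was possible with 1 array per group, and the number of arrays limits precision. Keeping a gene when its higher signal reached 100, and taking the Z score over 500 neighbours, were choices made here. Named genes were the 8 genes and, of each of 8 related lists, the genes past both thresholds and up to 4 measured genes with the largest absolute log2 ratio. Another 9 lists held cell type markers and mitosis genes. The genes and lists were chosen with earlier results of these data known. The steps were tested on simulated data. Python 3.11.15, pandas 2.3.3 and statsmodels 0.14.6 were used, and 8 alternatives were tried: 3 scalings, 2 signal filters, the mean of clusters, 50 added to both signals, and a Z score over all measured genes.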

Additional observations from a re-analysis of the deposited data

How the results depend on the processing

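None of the 8 genes passed the thresholds under any of the 8 alternatives, and their log2 ratios moved by less than the SD of the 500 genes nearest in signal. Only the 3 scalings could turn the sign of these genes, which have 1 cluster each and pass the minimum on both arrays. With the arrays centred on their medians, which lowered the median log2 ratio of all measured genes to -0.14, 2 of the 8 genes (Hsd11b1 at -0.68 and Klf9 at -0.65) were at least 1.5-fold lower, beside 7.74% of all measured genes in that setting. That centring changes every log2 ratio by -0.099. Quantile normalization, which brought the median of all measured genes to 0.055, gave list medians of 0.061 for family relatives, 0.043 for ligand supply and clearance, -0.14 for other glucocorticoid-induced genes, 0.16 for chaperones and coregulators and 0.13 for sodium transport. With no signal minimum, the median was -0.12 for other glucocorticoid-induced genes and 0.049 for repressed genes. With both signals at least 100, the median of the repressed genes was -0.44, and Mmp13 dropped out, so that 0 were higher. With 50 added to both signals, 0 of the repressed genes were higher. Over all measured genes, 19 were higher with both signals at least 100 and 24 with 50 added, in place of 44. No paired analysis was possible because each group has 1 array. Of the 8 genes, Tsc22d3 and Zbtb16 (189 and 186 in the DMA pool) lie closest to the minimum, where RMA narrows ratios.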

Other observations

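Some glucocorticoid targets best known from liver or muscle were under the signal minimum on both arrays and others were bright (all chosen after their values were seen). Tat, the tyrosine aminotransferase gene, had 27.7 in the DMA pool and 22.9 in the control pool. Pck1, which encodes the cytosolic enzyme of gluconeogenesis, had 52.4 in the DMA pool and 54.1 in the control pool, and the muscle ubiquitin ligase gene Trim63 had 26.3 in the DMA pool and 25.9 in the control pool. By contrast, Fbxo32, another muscle ubiquitin ligase gene, had 3126 in the DMA pool and 3210 in the control pool, and the glutamine synthetase gene Glul had 29638 in the DMA pool and 36659 in the control pool. In all, 10 of the 36 other glucocorticoid-induced genes were too dim on both arrays to give a ratio.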
